A study of Mus musculus with 8 samples.

Results

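The genes described here are the Zfp-numbered zinc finger genes that were well expressed in mouse liver, followed 3 h after an injection of the cytokine IL1B. Members were chosen by the symbol, Zfp followed by a number, and by level, a mean log2 value of 8 or more over all 8 arrays. The gene Zfp36 was left out because it encodes an mRNA-binding CCCH protein of another family. Of 335 Zfp-numbered genes, 82 were members and 253 lay below 8, among 22180 genes measured. Because the level rule used measured values, the levels of the members are given as a description and without a test.

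Most proteins with these names carry tandem C2H2 zinc fingers, small folds held by a zinc ion that each read a few bases of DNA. Many of them also carry a KRAB domain, which recruits the corepressor TRIM28 and through it the histone methyltransferase SETDB1, and these KRAB zinc finger proteins are best known for silencing retroelements and imprinted genes. Other members are activators, RNA-binding proteins or factors of ribosome assembly that share only the name.

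Livers of adult wild-type male mice were taken 3 h after an intraperitoneal injection of 0.5 µg IL1B per mouse or of the vehicle PBS, and their RNA was hybridised to Affymetrix MoGene 2.0 ST arrays, with 4 arrays per group. The challenge served in the study to ask how acute inflammation affects the transcription factor (TF) genes of hepatocyte identity. Per the labels the PBS mice were C57BL/6J and the IL1B mice C57BL/6 x CBA, whereas the description of the series gives C57BL/6J throughout, so strain as labelled and treatment cannot be told apart. No batch was given. The livers were measured in bulk, and fewer cells of a type and less RNA per cell cannot be told apart. Values are log2 robust multi-array average (RMA) signals on a scale whose antigenomic background probe sets reached at most 6.65 to 7.08 per array.

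Promoter sequences of members that were higher after IL1B are shown here because the motifs they hold differ. They are the 250 bases before the annotated start, 5′ to 3′, from RefSeq on build GRCm38.p6, and of the 82 members 68 had such a window, 10 of them among the 12 called higher. Zfp9 and Zfp750 had none. Capitals mark matches, on either strand, to AP-1 (TGANTCA), STAT (TTCNNNGAA), CRE (TGACGTCA), C/EBP (TTGCNNAA), ETS (CCGGAAGT), NF-kB or ZNF143 (CTACANNTC), where N is any base.
Zfp638, chr6:83914103-83914352, plus strand: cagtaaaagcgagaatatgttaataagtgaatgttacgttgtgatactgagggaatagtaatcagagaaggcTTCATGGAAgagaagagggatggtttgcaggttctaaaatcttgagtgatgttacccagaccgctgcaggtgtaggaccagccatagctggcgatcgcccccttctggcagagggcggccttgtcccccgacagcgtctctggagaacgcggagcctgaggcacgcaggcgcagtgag
Zfp110, chr7:12834511-12834760, plus strand: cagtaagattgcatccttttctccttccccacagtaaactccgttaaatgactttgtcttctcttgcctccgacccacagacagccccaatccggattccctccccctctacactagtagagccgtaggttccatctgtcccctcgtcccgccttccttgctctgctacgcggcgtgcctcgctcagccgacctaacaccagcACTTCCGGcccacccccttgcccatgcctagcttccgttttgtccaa
Zfp180, chr7:24081647-24081896, plus strand: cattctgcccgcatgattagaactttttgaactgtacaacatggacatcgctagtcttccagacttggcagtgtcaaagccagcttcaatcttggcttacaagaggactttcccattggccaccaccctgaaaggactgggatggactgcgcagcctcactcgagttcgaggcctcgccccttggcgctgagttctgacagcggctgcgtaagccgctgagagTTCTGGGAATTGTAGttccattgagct
Zfp790, chr7:29815822-29816071, plus strand: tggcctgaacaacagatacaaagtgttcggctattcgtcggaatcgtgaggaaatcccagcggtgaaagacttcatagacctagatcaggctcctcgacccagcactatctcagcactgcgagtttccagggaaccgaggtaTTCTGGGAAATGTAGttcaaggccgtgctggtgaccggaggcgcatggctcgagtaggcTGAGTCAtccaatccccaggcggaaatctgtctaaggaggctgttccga
The window of Zfp638 held 1 STAT-type match and that of Zfp110 1 ETS-type match. In Zfp180 and Zfp790 the STAT-type and ZNF143-type letters overlapped, so that both were part of 1 longer capital run, and Zfp790 had an AP-1-type match as well. The ZNF143 letters were added after these windows had been read. Both windows of Zfp800 and the window of Zfp942 held none of the 7 motifs.

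Over all 86 windows of the members, STAT-type letters were found in 16.3%, against 7.02% of 32851 windows of all annotated genes. ETS-type letters were found in 11.6% against 2.88% and ZNF143-type letters in 10.5% against 3.72%. AP-1-type letters were in 6.98% of member windows and 6.75% of all windows, CRE-type letters in 2.33% and 1.55%, NF-kB letters in 5.81% and 3.90%, and C/EBP-type letters in 3.49% and 9.56%. Of the 15 windows of members called higher, 4 had ETS-type, 3 STAT-type, 2 ZNF143-type, 1 AP-1-type and 1 CRE-type letters, and 0 had NF-kB or C/EBP-type letters. The windows of Zfp938 overlap and hold the same ETS-type match, which was thus counted more than once. Member windows held a median of 13 CpG dinucleotides against 6 in all windows, at a similar GC content (53.6% and 52.4%). These shares describe letters in a window, and several windows belong to the same gene. The windows of all annotated genes were not matched to the members by expression level or CpG count. Whether the shares are particular to Zfp genes was thus not tested. The ZNF143 share includes the windows that were read before its letters were added. STAT-type and ZNF143-type letters overlapped in Zfp180 and Zfp790, so their shares are not separate observations.

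After IL1B, 12 of the 82 members were higher and 0 were lower than after PBS (limma over all genes, Benjamini-Hochberg adjusted p of 0.05 or less). At an unadjusted p of 0.05, 27 were higher and 3 lower, beside 1796 and 1295 of the 6617 genes of mean 8 or more. Among all 22180 genes 7.19% were called higher and 5.32% lower, and among the 6617 genes that passed the same level rule 16.8% were called higher and 9.7% lower. The share of members called higher, 14.6%, was thus close to that of other genes of such level, and the share called lower was 0%. At the adjusted p of 0.15 that the study used, 24 members were higher and 3 lower, beside 25.3% and 17.5% of genes of mean 8 or more.

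The split depended on scaling between arrays. As deposited, the upper quartile of all features was 8.06, 8.06, 8.10 and 8.10 on the PBS arrays. On the IL1B arrays it was 8.23, 8.20, 8.22 and 8.28. Quantile normalization makes such quartiles equal. After quantile normalization 5 members were called higher and 3 lower (Zfp652, Zfp367 and Zfp707), while the genes of mean 8 or more went to 13% higher and 14.7% lower. That scaling moved the median difference of the genes of mean 8 or more from 0.03 to -0.08 and that of the members from 0.23 to 0.10 (log2 units, IL1B minus PBS), so the members' median lay above that of the other genes on both scales. Centring each array on its median gave 13 members higher and 0 lower.

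**Figure D1:**
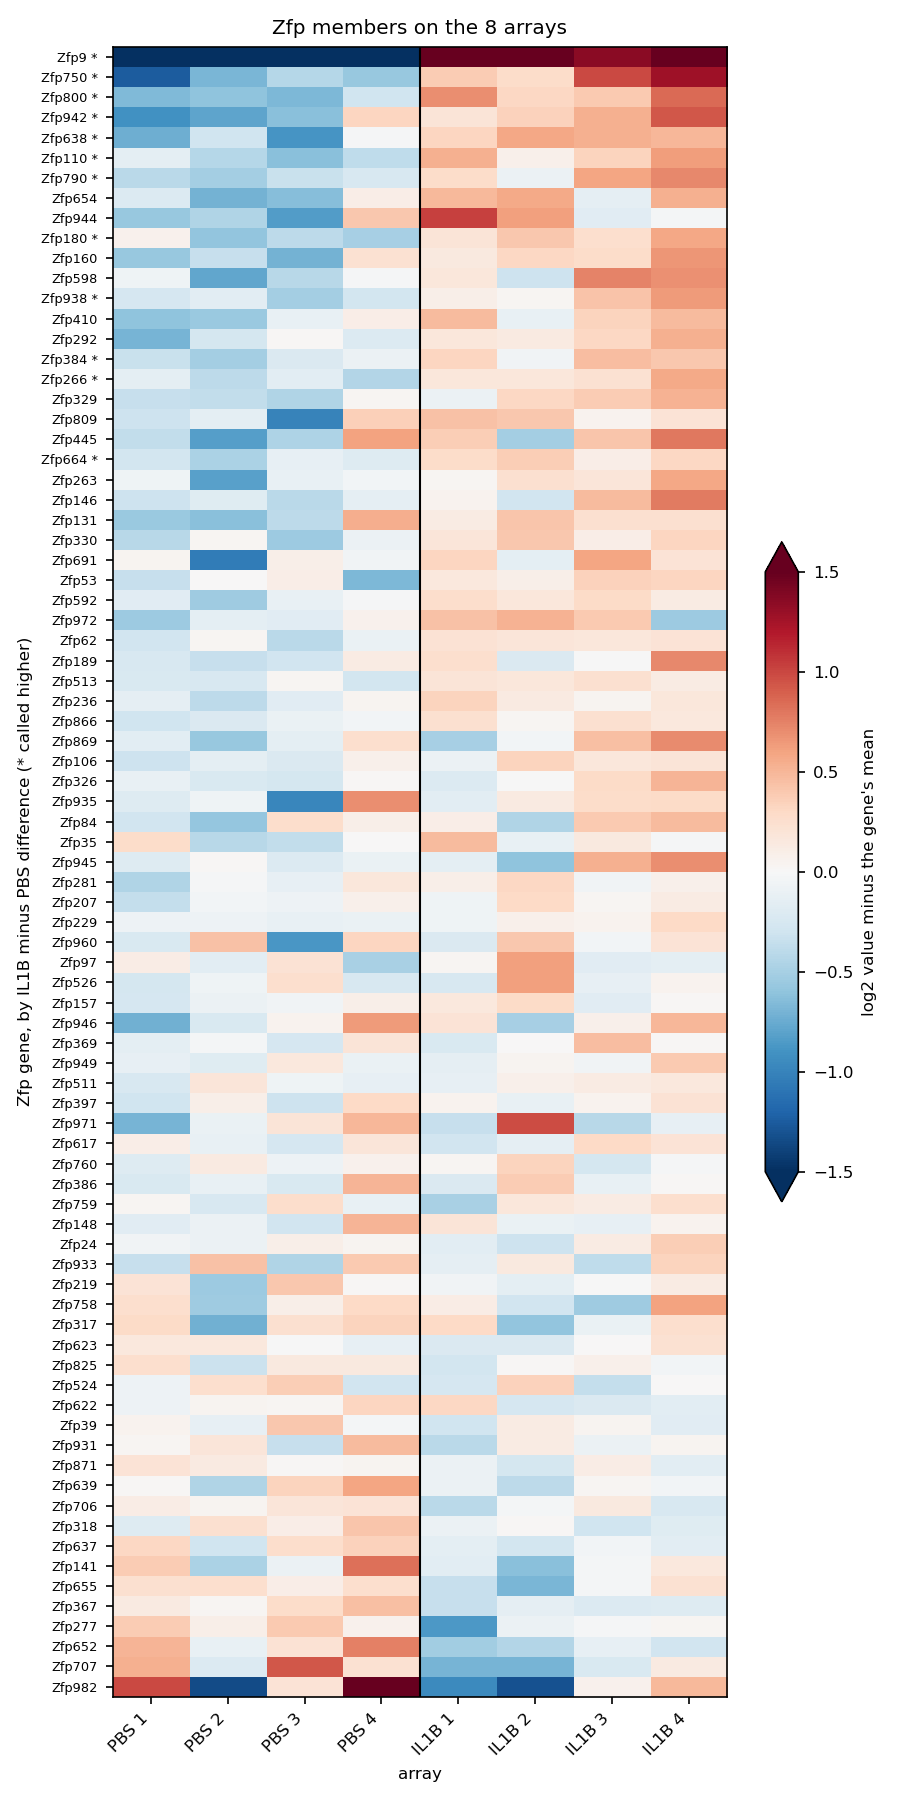
Each row is 1 of the 82 Zfp members, ordered by the IL1B minus PBS difference, and each column 1 array; colour gives the log2 value minus the mean of the gene, cut at 1.5 in either direction. Asterisks mark the 12 members called higher, and Zfp9 at the top is the 1 row that passes the ends of the scale in both groups.

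Differences were mostly small and mostly positive. Of the members, 60 (73.2%) had a positive and 22 a negative difference, beside 52.9% positive among genes of mean 8 or more. Among the 73 members with a PBS mean of 8 or more, 51 (69.9%) were positive. After quantile normalization 47 of the 82 members were positive. Differences ran from -0.86 to 3.52, and the median was 0.23 with the middle of the distribution between -0.03 and 0.53 (first and last quartile). The corresponding median was 0.03 over genes of mean 8 or more and -0.06 over all genes. Of the members, 4 differed by 1 log2 unit or more in either direction (4.88%), against 15.6% of genes of mean 8 or more. The median standard deviation between arrays of a group was 0.26 in PBS and 0.25 in IL1B, and over genes of mean 8 or more it was 0.25 and 0.24. All 4 IL1B arrays lay above all 4 PBS arrays for 20 members (24.4%) and below them for 3 (3.66%), where 21.6% and 13.7% of genes of mean 8 or more did so.

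**Figure D2:**
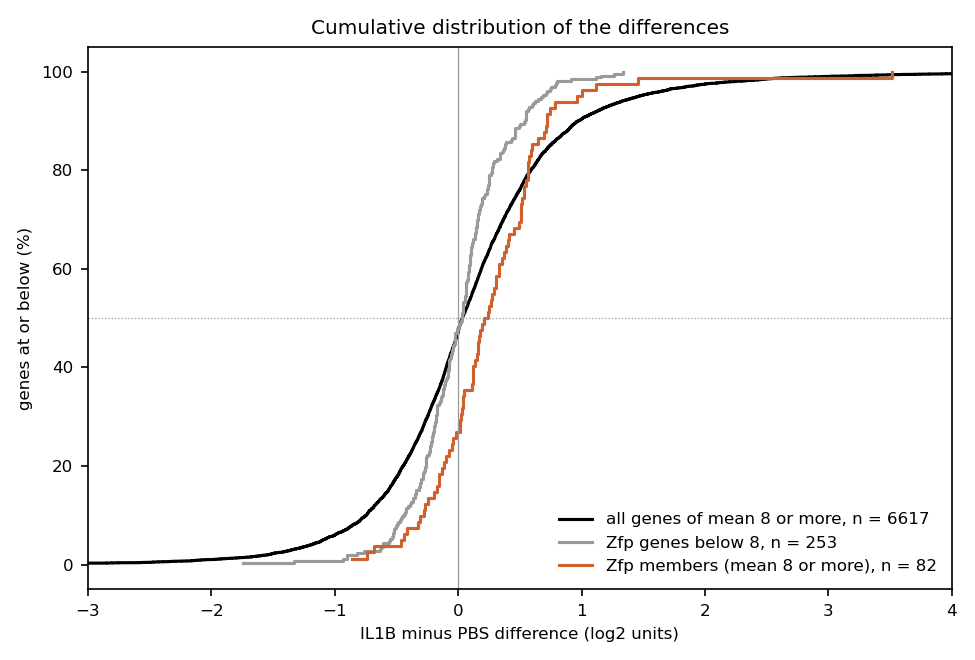
Cumulative share of genes (vertical axis, percent) at or below a given IL1B minus PBS difference (horizontal axis, log2 units) for the 82 members, the 253 Zfp-numbered genes below the level rule and all 6617 genes of mean 8 or more. The curve of the members crosses 50% at 0.23 and is steeper than that of all genes, with few members beyond 1 log2 unit on either side.

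The level rule itself bears on the count. For 9 members the PBS mean was under 8, so that they passed through the IL1B group (Zfp263, Zfp654, Zfp53, Zfp944, Zfp664, Zfp9, Zfp526, Zfp329 and Zfp866), and Zfp141 alone had an IL1B mean under 8. Of the 12 members called higher, 2 (Zfp9 and Zfp664) were among these 9 and had to differ to be members. Among the 73 members with a PBS mean of 8 or more, 10 were called higher and 0 lower, with a median of 0.17. In 16 of these 73 (21.9%) all IL1B arrays lay above all PBS arrays, and in 3 (4.11%) below them. Of genes of mean 8 or more over all 8 arrays, a set that was not filtered on the PBS mean, 21.6% and 13.7% did so. Just above the rule lay Zfp944 (mean 8.02), Zfp758 (8.03) and Zfp526 (8.06), with differences of 0.72, -0.05 and 0.16. Just below it lay Zfp740 (7.99), Zfp746 (7.97) and Zfp609 (7.95), with differences of 0.27, 0.78 and -0.90. Of these, Zfp746 was called higher and Zfp609 lower. With the rule applied to the PBS arrays alone, Zfp609 (PBS mean 8.40, IL1B mean 7.50) enters as a gene called lower.

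The largest difference was that of Zfp9. Its log2 values were 6.89, 6.87, 6.67 and 7.02 on the PBS arrays and 10.27, 10.23, 9.97 and 11.05 on the IL1B arrays. The PBS values lay near the top of the background probe sets, and 3 of the 4 were above the highest of them on their array. The groups were far apart, with a measured difference of 3.52 log2 units. With PBS 1 set to the background maximum of its array, Zfp9 was at least 11.1-fold higher after IL1B (3.47 log2 units). Because Zfp9 met the level rule through its IL1B values alone, this is given as a description.

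Zfp750 encodes a factor known in human keratinocytes for driving terminal epidermal differentiation. It read 9.33, 9.90, 10.16 and 10.02 in PBS and 10.96, 10.86, 11.57 and 11.86 in IL1B, so that the lowest treated array stood above the highest control. The difference was 1.46 (SE 0.26, n = 4 per group, limma adjusted p 0.0069), or 2.75-fold.

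Zfp800, known in human intestinal organoids as a repressor of enteroendocrine differentiation, rose from 8.39, 8.45, 8.38 and 8.75 to 9.75, 9.36, 9.44 and 9.90. The groups did not overlap, and the difference was 1.12 (SE 0.16, n = 4 per group, limma adjusted p 0.0024). Both of its annotated starts lacked the motifs searched above.

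Zfp638, whose product works with C/EBP factors in adipocyte differentiation and is also known as NP220, a silencer of unintegrated retroviral DNA, had values of 10.48, 10.91, 10.32 and 11.19 in PBS and 11.53, 11.78, 11.74 and 11.71 in IL1B. The treated arrays lay close together (SD 0.11) and the PBS arrays were spread more widely (SD 0.40). The difference was 0.96 (SE 0.20, n = 4 per group, limma adjusted p 0.013).

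Zfp110, also known as NRIF, binds the neurotrophin receptor p75. It read 9.65, 9.35, 9.16 and 9.41 in PBS and 10.32, 9.86, 10.12 and 10.42 in IL1B, with no overlap, and differed by 0.79 (SE 0.17, n = 4 per group, limma adjusted p 0.014). These members, Zfp9, Zfp750, Zfp800, Zfp638 and Zfp110, were called higher in each of the 8 fits that left out 1 array and after quantile normalization.

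The other 7 members called higher differed by 0.53 to 1.00. They lost the call after quantile normalization, and each kept it in 1 to 3 of the 8 fits that left out 1 array. Zfp942 had 9.74, 9.86, 10.02 and 10.97 in PBS and 10.84, 10.999, 11.18 and 11.58 in IL1B. Its groups overlapped, because PBS 4 exceeded IL1B 1, and its difference of 1.00 (SE 0.28, n = 4 per group, limma adjusted p 0.045) remained called in 1 of the 8 fits without an array, that without PBS 4. Zfp790 rose by 0.74, Zfp180 by 0.71 and Zfp938 by 0.59, and Zfp664 by 0.53, each with no overlap between the groups. Zfp384, a nuclear matrix factor also called NMP4 or CIZ, had 9.93, 9.75, 10.04 and 10.17 in PBS and 10.58, 10.21, 10.72 and 10.67 in IL1B, a difference of 0.57 (SE 0.16, limma adjusted p 0.046). Zfp266, known in mouse cells as a barrier to reprogramming to pluripotency, had 11.92, 11.67, 11.91 and 11.62 in PBS and 12.23, 12.24, 12.30 and 12.63 in IL1B, a difference of 0.57 (SE 0.15, limma adjusted p 0.033). In Zfp384 the nearest arrays of the groups, PBS 4 and IL1B 2, lay 10.17 against 10.21.

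A further 9 members had groups that did not overlap without passing the threshold (Zfp292, Zfp263, Zfp330, Zfp592, Zfp62, Zfp513, Zfp236, Zfp866 and Zfp229), with differences from 0.18 to 0.58. Among them, Zfp263 and Zfp866 had a PBS mean under 8 and were members through their IL1B values. Zfp62 was the tightest of the 9 after IL1B, at 10.06, 10.03, 10.02 and 10.05 beside 9.56, 9.88, 9.44 and 9.74 in PBS (difference 0.38, SE 0.13, limma adjusted p 0.094). Zfp654 and Zfp160 had larger differences, 0.72 and 0.69, but overlapping groups and limma adjusted p of 0.072 and 0.067. Zfp410, a dedicated activator of the remodeller gene Chd4 in mouse and human cells, had 8.74, 8.79, 9.23 and 9.44 in PBS and 9.82, 9.23, 9.67 and 9.82 in IL1B. Its difference was 0.59 (SE 0.20, limma adjusted p 0.097), and Chd4 itself had a difference of -0.30 (SE 0.12) that did not pass.

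**Figure D3:**
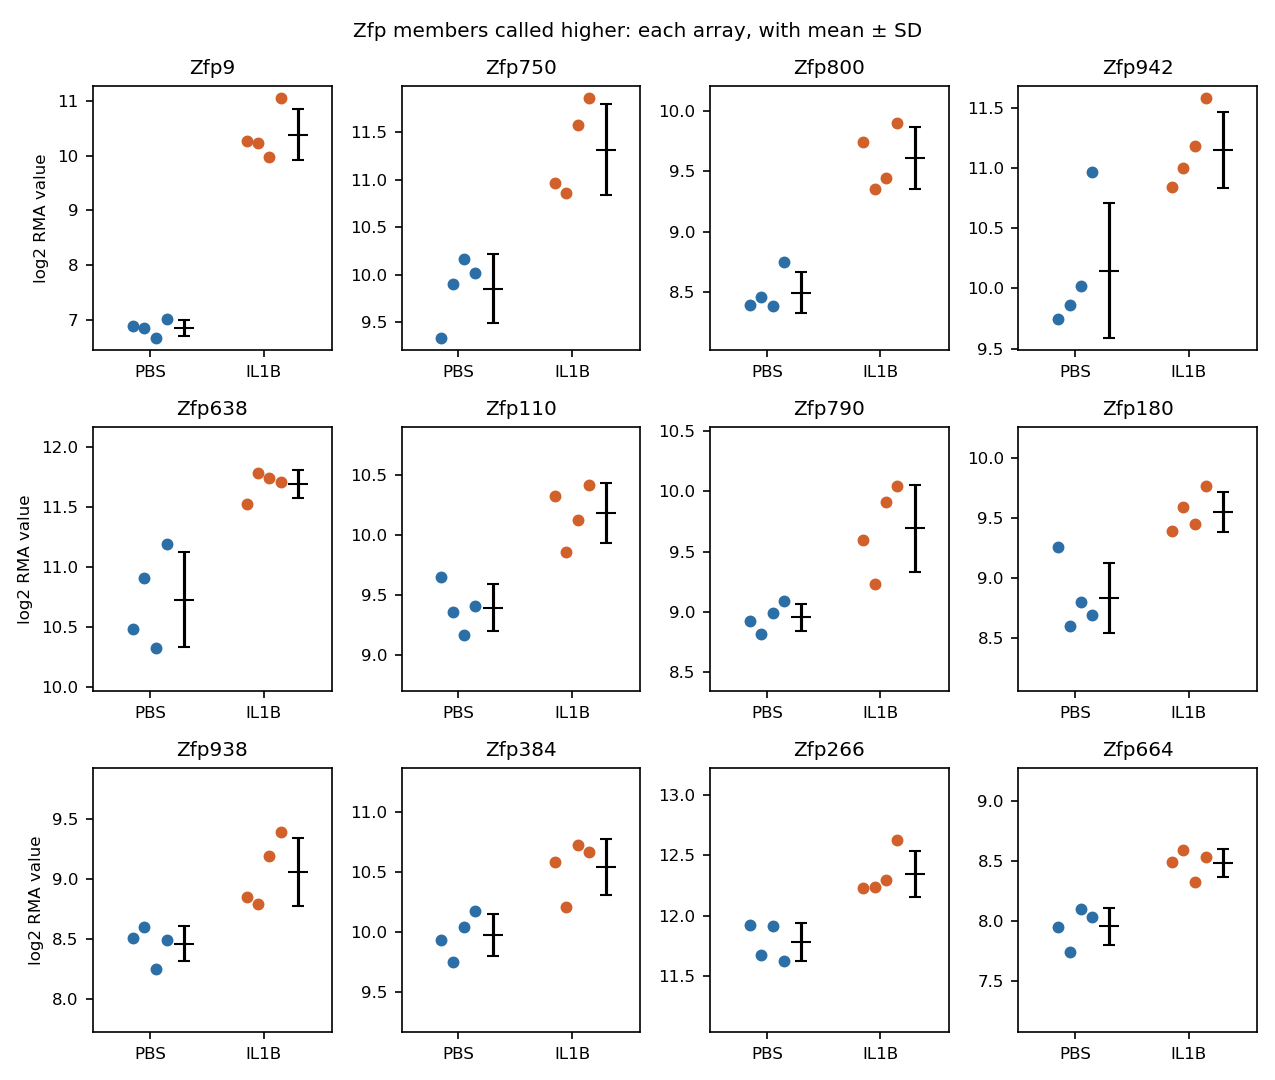
Log2 RMA values of the 12 members called higher on each of the 4 PBS (blue) and 4 IL1B (orange) arrays, with the group mean and SD in black; each panel has its own vertical axis of log2 values. Zfp942 is the 1 panel in which a PBS array, at 10.97, reaches above an IL1B array, at 10.84.

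No member passed the threshold downwards, and the members nearest to it are named here after their values were seen. Zfp652, known in human cells as a partner of the corepressor CBFA2T3, had 11.10, 10.48, 10.81 and 11.34 in PBS and 10.07, 10.15, 10.47 and 10.30 in IL1B. The lowest PBS value stood just above the highest IL1B value, and the difference was -0.68 (SE 0.20, n = 4 per group, limma adjusted p 0.0505). Its call depended on the setting, since it was called lower after quantile normalization, with a filter on dim genes, with the trend and robust options, with array weights and without PBS 2. Zfp652 also lies on a further feature that the annotation shares with another gene and that was not used.

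Zfp367 (PBS 8.85, 8.74, 8.99 and 9.16, IL1B 8.36, 8.58, 8.51 and 8.52) and Zfp277 (PBS 9.43, 9.13, 9.43 and 9.11, IL1B 8.19, 8.95, 9.03 and 9.07) also had no overlap between the groups. Their differences were -0.44 and -0.47 with limma adjusted p of 0.064 and 0.19. The lowest difference, -0.86, was that of Zfp982, whose PBS values spanned 8.43 to 11.64 and whose IL1B values spanned 8.47 to 10.26. With an SD of 1.36 among PBS arrays it had a limma adjusted p of 0.45. Zfp707 had a difference of -0.74 (limma adjusted p 0.11), and its groups overlapped.

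By role, the 12 members on a list of DNA-binding regulators had 3 called higher (Zfp750, Zfp110 and Zfp384), 0 lower and a median of 0.40, beside the 16.8% higher and 9.7% lower among genes of that level. Zfp148, also called ZBP-89, a GC-box binding factor (0.02, SE 0.19), Zfp281, a pluripotency factor in mouse embryonic stem cells (0.21, SE 0.16), and Zfp219 (-0.04, SE 0.20) had limma adjusted p between 0.45 and 0.97. Zfp292 read 8.13, 8.57, 8.85 and 8.63 in PBS and 9.004, 8.97, 9.14 and 9.37 in IL1B, and the groups did not overlap, yet its difference of 0.58 did not pass (limma adjusted p 0.064). Others on the list, Zfp592, Zfp131, Zfp62 and Zfp637, had 0.42, 0.51, 0.38 and -0.31 and did not pass either.

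The list of 10 members with roles in RNA, the ribosome or the nucleolus had 1 called higher, Zfp638, and 0 lower, beside the same 16.8% and 9.7%, and a median of 0.24. Zfp598, the ubiquitin ligase that marks collided ribosomes, had 10.04, 9.33, 9.69 and 10.09 in PBS and 10.28, 9.80, 10.85 and 10.80 in IL1B. The groups overlapped, and the difference of 0.64 had a limma adjusted p of 0.15. Zfp207, also called BuGZ, which binds the spindle checkpoint protein BUB3, differed by 0.19, and Zfp622, a factor of large ribosomal subunit maturation, by -0.15. Zfp326, a splicing and elongation factor (0.29), Zfp106, an RNA-binding protein (0.31), Zfp706 (-0.27), Zfp871 (-0.20) and Zfp318 (-0.28) did not pass. For the nucleolar Zfp330 the 3 features disagreed, with differences of -0.25, 0.67 and 1.10 and an average of 0.51 (limma adjusted p 0.075), and it was called when the brightest feature alone was used.

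On a hand-made list of silencers of imprinted genes or retroelements, 2 genes were members, Zfp445, which maintains genomic imprints, and Zfp809, which silences murine leukaemia virus sequences. Zfp445 had 12.18, 11.73, 12.09 and 13.16 in PBS and 12.92, 12.05, 12.98 and 13.34 in IL1B. Zfp809 had 11.04, 11.21, 10.34 and 11.70 in PBS and 11.79, 11.75, 11.40 and 11.55 in IL1B. In Zfp445 PBS 1, PBS 3 and PBS 4 lay above IL1B 2, and in Zfp809 PBS 4 alone reached into the IL1B range. The differences of 0.53 and 0.55 had limma adjusted p of 0.37 and 0.21.

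The partners of KRAB zinc finger proteins were read from a list of 29 corepressor and heterochromatin genes, of which 26 were measured. Of these, 2 were called higher and 2 lower, 7.69% each way, beside 7.19% and 5.32% of all genes. However, 21 of the 26 had a mean of 8 or more. Among all genes of that level 16.8% were called higher and 9.7% lower. Trim28, the corepressor itself, had 9.98, 9.73, 9.98 and 9.81 in PBS and 10.08, 9.98, 9.65 and 9.86 in IL1B, a difference of 0.02 (SE 0.14). Setdb1 differed by -0.16 (SE 0.13) and the heterochromatin protein gene Cbx5 by 0.01 (SE 0.16), and none of the 3 passed. The genes that rose were the chromatin ATPases Morc3 (1.21) and Smarcad1 (0.65), and those that fell were the nucleosome remodeller Chd3 (-1.15) and the DNA methyltransferase Dnmt3a (-0.73). Chd3 kept its call in all 8 fits without 1 array, Morc3 in 6, and Smarcad1 and Dnmt3a in 2 each.

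Other zinc finger families were counted by symbol at the same level rule. Of 10 Zbtb genes, which pair zinc fingers with a BTB domain, 3 were called higher and 1 lower, and of 8 Zc3h genes of the CCCH type 2 were higher and 0 lower, beside 16.8% higher and 9.7% lower among all genes of that level. The 2 Zkscan and 2 Zscan genes of that level had 0 calls. Zfp36, the mRNA decay factor tristetraprolin that the rule left out, rose by 1.51 (SE 0.43, limma adjusted p 0.048), with overlapping groups and a call kept in 2 of 8 fits without 1 array: 10.54, 11.62, 10.43 and 9.44 in PBS and 12.36, 11.99, 12.46 and 11.27 in IL1B. The 253 Zfp-numbered genes below 8 had 15 called higher (5.93%) and 10 lower (3.95%), where all genes below 8 had 3.12% and 3.45%.

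By the TF annotation of the study, which groups TF gene promoters into clusters A to G of increasing complexity of TF binding in mouse liver, 26 members had no cluster. Of the members in cluster D 22.2% were called higher (4 of 18), in E 11.8% (2 of 17), in F 22.2% (2 of 9) and in B 50% (1 of 2). Of the other TF genes of mean 8 or more, 23.3% were called higher in D, 33.3% in E, 27.6% in F and 20% in B. The 9 members of cluster G were Zfp292, Zfp809, Zfp62, Zfp35, Zfp97, Zfp386, Zfp148, Zfp219 and Zfp871. None of them was called in either direction, and their differences ran from -0.20 to 0.58 with a median of 0.16. Of the 66 other TF genes of cluster G and of the same level, 26 were called higher and 6 lower. That no member was called depended on the level rule. Zfp746 (mean 7.97) and Zfp1 (mean 7.23), also of cluster G but below 8, were called higher. Their differences were 0.78 and 0.69 (limma adjusted p 0.025 and 0.042). Cluster G Zfp genes below 8 were not counted as a set. By breadth of expression across cell types, 5 of 16 ubiquitous members and 3 of 25 cell-type enriched members were called higher, with medians of 0.51 and 0.24, and of the other TF genes of that level 30.7% and 22.8% were called higher. The difference between these classes was not tested.

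**Figure D4:**
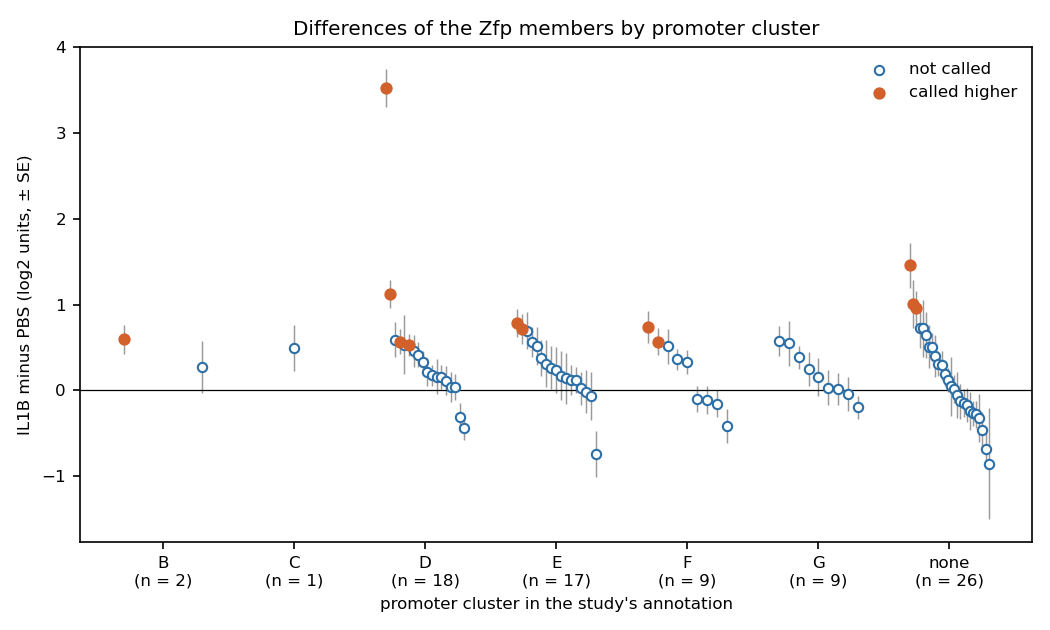
IL1B minus PBS difference of each member with its SE (vertical axis, log2 units), by promoter cluster of the study (horizontal axis, with the number of members). Filled points are called higher; the 9 members of cluster G lie between -0.20 and 0.58 and none is filled.

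Some members lie in runs of neighbours along the genome, and neighbours need not move together. On chromosome 6, 4 of 5 members were called higher (Zfp9, Zfp800, Zfp638 and Zfp384), while the fifth, Zfp637, had -0.31. Of 338 genes of that level on chromosome 6, 18.3% were called higher. This chromosome was picked out after its values were seen, and its members did not form a run of neighbours. On chromosome 17 lay 14 members, 8 of them in 1 run of neighbours (Zfp53, Zfp760, Zfp229, Zfp942, Zfp944, Zfp758, Zfp946 and Zfp945). In that run Zfp942 alone was called, and the other 7 had differences from -0.05 to 0.72. Paralogues of such runs can share probe sequence, and their part in these values was not tested.

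On 1 array of each group many members were high at once. Their mean log2 value per array was 9.23, 9.14, 9.25 and 9.51 in PBS and 9.45, 9.46, 9.55 and 9.71 in IL1B. PBS 4 thus lay above IL1B 1 and IL1B 2, and the groups overlapped. PBS 4 was the highest PBS array for 49 of the 82 members and IL1B 4 the highest IL1B array for 37, whereas the mean over all genes of mean 8 or more did not single out PBS 4 (11.03, 10.90, 11.11 and 11.02 in PBS). The same mean was highest on IL1B 4 among the IL1B arrays (11.12, 11.02, 11.15 and 11.17), as was the upper quartile, so a high IL1B 4 was shared with other genes. Without PBS 4 the median difference of the members was 0.31, and without IL1B 4 it was 0.17.

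Markers of other cell types moved with the treatment. Of 10 neutrophil markers 7 were called higher, with a mean level per array of 4.56 to 5.17 in PBS and 6.92 to 11.1 in IL1B, and of 5 monocyte markers 2 were higher (4.97 to 5.84 and 6.41 to 10.3). The defining markers of T, NK and B cells lay at background in both groups for 10 of 10 measured, and 2 of them, Ms4a1 and Cd79b, were called lower there. Of 8 stellate cell markers 1 was lower (Lrat), and of 4 cholangiocyte markers measured 1 was higher (Sox9). Des and Col1a1 of the stellate list and Krt19 and Krt7 of the cholangiocyte list lay at background in both groups. Of 10 Kupffer cell and macrophage markers 0 were called (10.1 to 11.3 and 10.2 to 13.5), and of 8 endothelial markers 2 were higher and 3 lower, Lyve1 by 3.18 and Kdr by -2.47 among them. The 5 proliferation markers measured had 0 calls, and 3 of them (Cdk1, Birc5 and Aurkb) lay at background in both groups. Of 8 hepatocyte markers 1 was higher (Hnf4a, difference 1.25) and 1 lower (Serpina1a, -0.48). However, Alb, Ttr and Cyp2e1 lay at the ceiling of the scale on all arrays, and Apoa1 had the same value on all. These 4 could thus show no change. Cps1 read 19.51 on most arrays. IL1B 1 and IL1B 2 stood apart from IL1B 3 and IL1B 4 in several markers: the neutrophil gene S100a8 read 12.17, 13.04, 7.69 and 7.79, the macrophage gene Marco 15.14, 13.33, 9.74 and 8.62, and the proliferation gene Mki67 10.34, 10.997, 6.61 and 6.27. Without both IL1B 1 and IL1B 2, a fit chosen after these values were seen, 9 members were called higher and 0 lower, beside 10.96% and 4.26% of genes of mean 8 or more. Of the 12, 6 kept the call (Zfp9, Zfp750, Zfp800, Zfp110, Zfp790 and Zfp938), Zfp638 did not, and all 12 still had a positive difference. The median difference of the members was 0.27. The part of these cells in the differences of the members was not tested.

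The number of members called also depended on which arrays were used. It was 6 without PBS 1, PBS 2, PBS 3 or IL1B 4, 7 without IL1B 1, and 8 to 11 without 1 of the others. The median difference of the members without Zfp9 was 0.21.

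**Figure D5:**
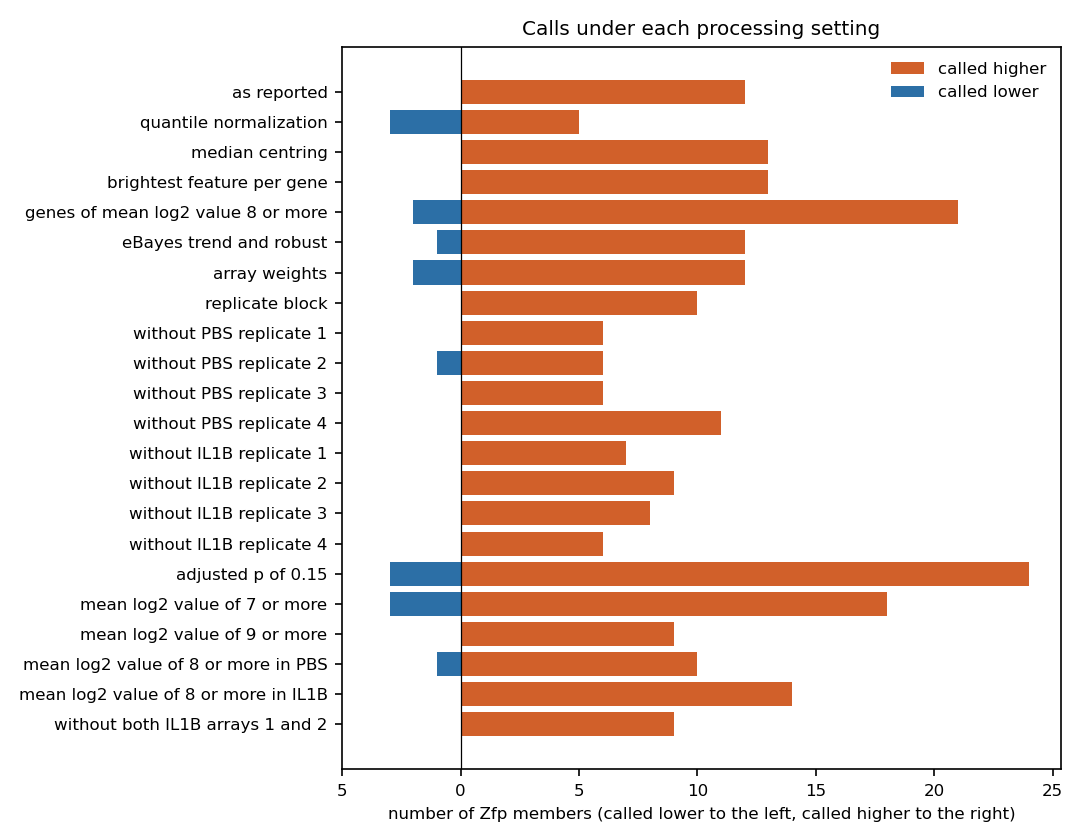
Number of members called higher (orange, to the right) and lower (blue, to the left) under each processing setting, with leave-one-out fits named by the array left out. The count called higher runs from 5 to 24 and the count called lower from 0 to 3.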

How the data were processed

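Liver RNA of the 4 PBS and 4 IL1B samples was measured on MoGene 2.0 ST arrays. The authors deposited log2 values, which they had obtained by RMA in Affymetrix Power Tools under Galaxy with scaled intensities and, where offered, GC correction. The version was not given in the sources used here. Because intensities were scaled between arrays, a shift of all genes together could not be seen in full. Array number limits the precision.

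The table held 41345 features, 23521 of them with 1 gene symbol, 1820 with several and 16004 with none. Where a symbol had several such features their mean was used, giving 22180 genes. Groups came from the titles. Each gene was tested with limma 3.58.1 (R 4.3.3, lmFit and eBayes, group only) on all 8 arrays, adjusted over all genes by Benjamini-Hochberg and called at 0.05, and the script was tested on simulated data. SDs are over 4 arrays. P-values measure the spread between these samples. Settings also tried were a replicate block, the brightest feature per gene, median centring, quantile normalization, a filter on genes below 8, trend and robust options, array weights, each array left out, a threshold of 0.15 and other level rules. Members without Zfp9 and a fit without both IL1B 1 and IL1B 2 were added after the data were seen. Members and lists were chosen with earlier results of these data known.

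Named genes were, by rule, the members called with the highest and lowest differences, those in promoter cluster G or the role lists and the 3 genes on either side of the level rule. Others were chosen after their values were seen. Promoters and names came from RefSeq (GRCm38.p6), and all 82 members matched. Classes by protein domain were not analysed here. Figures were drawn with matplotlib 3.10.9.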

Additional observations from a re-analysis of the deposited data

Results flagged for a closer look

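In 4 of 76 groups of 4 arrays tested, 1 array stood apart from the other 3 by Dixon's criterion, and chance gives about 1 in 20. For Zfp266, IL1B 4 read 12.63 with the nearest array at 12.30. For Zfp386, PBS 4 read 8.84 with the nearest at 8.22. For Zfp637, PBS 2 read 8.08 with the nearest at 8.64. For Zfp622, IL1B 1 read 10.46 with the nearest at 9.99.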

How the results depend on the processing

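The count of members called higher was 12 and moved to 5 after quantile normalization, 21 when only genes of mean 8 or more were tested, 24 at an adjusted p of 0.15, and between 6 and 11 when 1 array was left out. The count called lower was 0 and moved to 3 after quantile normalization, 2 when dim genes were filtered out, 1 with trend and robust options, 2 with array weights, 3 at 0.15, 3 with a level rule of 7, 1 with the level rule on PBS arrays alone, and between 0 and 1 when 1 array was left out. The cause of these changes was not tested. The median difference of the members stayed positive under all alternatives run, from 0.10 to 0.31, and between 0.17 and 0.31 without 1 array. With a replicate block 10 members were called higher and 0 lower, 8 of them among the 12. Samples of the same number did not all deviate together (correlations of -0.13, 0.32, 0.09 and 0.23), yet 3 of 4 numbers correlated best with themselves. PBS 4 and IL1B 4, on which many members were high, also share a number. These values do not settle whether samples of the same number belong together, and the main fit used group only.

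Of the 82 members, 17 changed sign in at least 1 fit without 1 array, and 0 of these were called. Among the 38 genes picked by the naming rule, 6 did so. After quantile normalization Zfp386 had -0.13 and Zfp148 -0.13, and with array weights Zfp386 had -0.0052. Without 1 array, Zfp386 ran from -0.0889 to 0.207, Zfp148 from -0.0773 to 0.187, Zfp97 from -0.0171 to 0.26, Zfp219 from -0.232 to 0.0867, Zfp758 from -0.261 to 0.116 and Zfp526 from -0.0193 to 0.272. The members had a median difference in size of 0.32 and a median SE of 0.19 with 4 arrays a group, so differences of that size were near the limit of what these arrays could show.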
